A study of Mus musculus with 1 sample.

Results

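The receptors here are 8 genes, chosen by symbol from the 32285 genes of the count matrix as receptors for neural input to chromaffin cells. They are the nicotinic acetylcholine receptor subunits *Chrna3*, *Chrna5*, *Chrna7*, *Chrnb2* and *Chrnb4*, the PACAP receptor *Adcyap1r1*, the prostaglandin E2 receptor EP3 (*Ptger3*) and the alpha-2A adrenoceptor (*Adra2a*). EP3 binds prostaglandin E2 and the alpha-2A adrenoceptor binds catecholamines, which are not among the transmitters named below for the nerve fibres. Each symbol matched 1 row of the matrix, and the rule names the genes and uses no threshold on their values. The data are 1 single-cell RNA library of the adrenal medulla of untreated wild-type mice at postnatal day 15, in which 10 adrenals of 5 mice of mixed sex were pooled. The excess cortex was trimmed by hand, the tissue was dissociated with enzymes and an aliquot of 10000 viable cells was loaded, so the splanchnic nerve endings that contact chromaffin cells in the gland were not assayed. Because the pool is 1 library, differences between mice were not measured, no test between samples was possible, and every interval below is a 95% interval that covers counting error only.

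Chromaffin cells are the endocrine cells of the adrenal medulla and release adrenaline or noradrenaline into the blood when preganglionic splanchnic fibres fire. The fibres release acetylcholine, which opens nicotinic receptors made of 5 subunits. An alpha-3 subunit combined with beta-4 forms the main ganglionic type, alpha-5 and beta-2 can join it, and alpha-7 can form a channel alone. The fibres also release the peptide PACAP, whose receptor raises cyclic AMP through the G protein Gs. EP3 and the alpha-2A adrenoceptor mainly couple to the inhibitory G proteins Gi and Go, and the latter is known as a feedback receptor for released catecholamines.

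The library held 11214 barcodes and 51421499 unique molecular identifiers (UMIs), of which 10139 cells were kept with a median of 3567 UMIs and 1611 genes. Cells were clustered and each cluster was named from marker genes, so the names are rebuilt and can differ from those of the study. The adrenaline chromaffin-like class had 1663 cells in 3 clusters and the noradrenaline chromaffin-like class 394 cells in 1 cluster, and together they are the 2057 chromaffin-like cells below. *Chga*, the granule protein chromogranin A, had a UMI in 100% and 99.5% of these 2 classes, and *Th*, the first enzyme of catecholamine synthesis, in 98.2% and 85.3%. *Pnmt*, which makes adrenaline from noradrenaline, had a UMI in 96.6% of adrenaline and 16.0% of noradrenaline chromaffin-like cells, at 11662 and 196 UMIs per 1000000 UMIs of the class (CPM). A further 412 cells carried chromaffin and sustentacular markers together and are called transitioning-like (leading genes *Timp3*, *Apod* and *Ifitm3*), and 140 were cycling chromaffin-like (*Cenpf*, *Top2a* and *Mki67*). The cycling class should be read with care, because 15% of its cells were called as doublets and *Star*, a steroidogenic marker of cortex, had a UMI in 40.7% of them. A cluster of 179 cells held enough sustentacular markers for that name, such as *Cdh19* (55.9% of its cells) and *Sox10* (39.1%). Its median of 1149 UMIs a cell lay below 1189, a depth limit set for the names used here and not for the clustering. It is therefore named by its leading genes *Scn7a* and *Col28a1* (*Kcna1*, *Igfbp7* and *Col3a1* against medullary cells alone). The non-medullary cells were 6581 cells of cortex-like, endothelial-like, immune-like and fibroblast-like clusters. Another 727 cells with markers of more than 1 class and 43 unnamed cells were left out of all classes.

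The sequences before the transcription starts of 4 of the genes are shown because these are the 2 neighbouring subunit genes with the steepest restriction to chromaffin-like cells and the 2 genes that differed most between noradrenaline and adrenaline chromaffin-like cells. Each is the 250 bases upstream of the RefSeq start in build GRCm38.p6, written 5′ to 3′ on the strand of the gene. The letters GGGCGG (a GC box) and CAGCTG (a form of the E-box) are in capitals wherever they occurred on either strand. Other forms of the E-box were not searched for and are not marked. These windows are chr9:55026563-55026812 (minus strand) for *Chrna3*, chr9:55048545-55048794 (minus) for *Chrnb4*, chr7:63212527-63212776 (minus) for *Chrna7* and chr3:157566626-157566875 (plus) for *Ptger3*.
Chrna3: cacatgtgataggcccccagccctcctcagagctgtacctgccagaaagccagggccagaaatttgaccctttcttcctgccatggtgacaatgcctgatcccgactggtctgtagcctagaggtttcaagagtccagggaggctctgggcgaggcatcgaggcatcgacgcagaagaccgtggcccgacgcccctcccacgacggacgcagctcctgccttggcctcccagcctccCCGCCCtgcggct
Chrnb4: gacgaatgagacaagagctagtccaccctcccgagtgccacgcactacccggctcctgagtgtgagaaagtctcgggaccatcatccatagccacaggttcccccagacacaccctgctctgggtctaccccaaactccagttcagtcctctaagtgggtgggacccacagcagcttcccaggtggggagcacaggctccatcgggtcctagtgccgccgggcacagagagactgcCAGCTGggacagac
Chrna7: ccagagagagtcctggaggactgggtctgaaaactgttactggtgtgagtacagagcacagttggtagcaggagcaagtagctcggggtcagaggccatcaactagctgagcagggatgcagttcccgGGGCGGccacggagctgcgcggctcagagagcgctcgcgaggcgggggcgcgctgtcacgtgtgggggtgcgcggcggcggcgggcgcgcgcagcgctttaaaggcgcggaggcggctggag
Ptger3: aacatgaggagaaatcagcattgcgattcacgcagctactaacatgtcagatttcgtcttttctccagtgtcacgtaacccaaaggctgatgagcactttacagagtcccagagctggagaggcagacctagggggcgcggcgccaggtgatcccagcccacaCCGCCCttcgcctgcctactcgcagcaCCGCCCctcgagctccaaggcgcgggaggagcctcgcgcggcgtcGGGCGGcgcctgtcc
The *Chrna3* and *Chrna7* windows each held 1 GC box and the *Ptger3* window held 3, while the *Chrnb4* window held no GC box and 1 CAGCTG. Among 32851 RefSeq promoters of this length, 32.7% held at least 1 GC box on either strand, 8.47% held at least 3 and 13.0% held CAGCTG. The 4 windows had 61.2% to 67.2% G and C, against a median of 52.4% over all promoters. Of the other members, *Adcyap1r1* had 1 GC box, *Adra2a* had 1 GC box and 1 copy of CGTCA (a short form of the cyclic AMP response element, present in 17.8% of promoters), *Chrnb2* had 1 CGTCA, and *Chrna5* had 2 RefSeq starts, the first with 1 CGTCA and no GC box and the second with 4 GC boxes. All 8 members matched the RefSeq table, and no letter was compared with the levels by a test.

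Of the 8 receptors, 7 were detected in chromaffin-like cells and 1, *Adra2a*, was not. In these data each UMI stands for the 3′ end of 1 transcript, so levels of different genes are compared in CPM without division by length. Whether reads beyond an annotated 3′ end were missed was not tested. Over the chromaffin-like cells, *Chrna3* was the most abundant at 86.9 CPM (80.8 to 93.3; 754 UMIs), followed by *Adcyap1r1* at 76.3 CPM (662 UMIs), *Chrnb4* at 45.9 CPM (398 UMIs) and *Chrna7* at 30.9 CPM (268 UMIs). *Ptger3* reached 16.4 CPM (142 UMIs), *Chrnb2* 8.53 CPM (74 UMIs) and *Chrna5* 3.69 CPM (2.52 to 5.21; 32 UMIs). Over these pooled cells, which are mostly adrenaline cells, the 4 most abundant receptors were thus the ganglionic nicotinic pair, the PACAP receptor and alpha-7. The accessory subunits alpha-5 and beta-2 were the rarest of those detected. In noradrenaline cells alone the order differed, with *Chrna7* (86.8 CPM) and *Ptger3* (76.4 CPM) above *Chrnb4* (68.1 CPM), although these intervals overlapped.

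**Figure D1:**
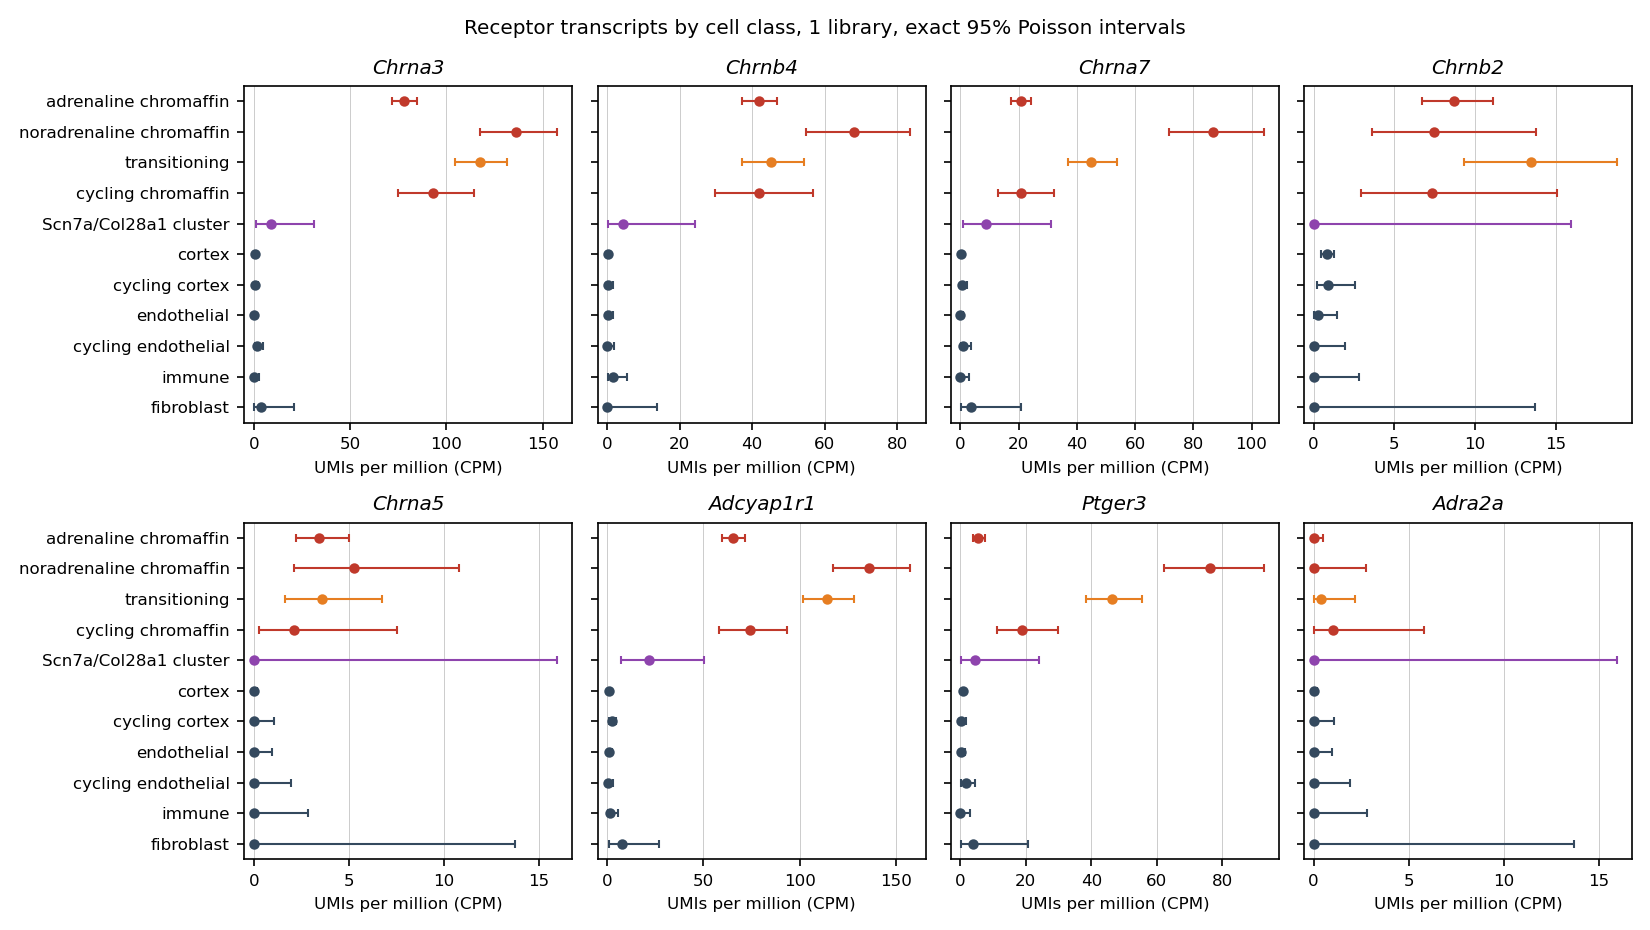
Level in CPM on a linear axis for each receptor in each cell class, with points for the level and bars for the exact 95% Poisson interval of counting error in 1 library. The points of the chromaffin-like and transitioning-like classes lie above those of the non-medullary classes for the 7 receptors that were detected. For *Chrna5* and *Chrnb2* the intervals of these classes overlap that of the 88 fibroblast-like cells. The same holds for *Chrna7* and *Ptger3* in the adrenaline and cycling classes. *Adra2a* has no UMI in adrenaline or noradrenaline chromaffin-like cells.

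The first comparison asked how far the receptors were restricted to chromaffin-like cells. All 6 members with at least 50 UMIs over both groups were more than 2-fold higher in chromaffin-like than in non-medullary cells, where 18.8% of the 13433 genes measured at this depth were higher and 25.8% lower by that rule. Each of the 6 reached that minimum through chromaffin-like cells alone, so this count is a description. *Chrna3* had 13 UMIs in non-medullary cells (0.408 CPM, 0.217 to 0.698), and its level in chromaffin-like cells was 213-fold higher (124 to 402). *Chrnb4* had 8 non-medullary UMIs and was 183-fold higher (91.8 to 426), and *Chrna7* had 9 and was 109-fold higher (56.7 to 242). These 3 subunits had the largest ratios of the 6, with only 0.543%, 0.864% and 2.16% of genes having a larger one. The interval of *Chrna7* overlaps that of *Adcyap1r1* below, so they are not a separate group. Their sizes rest on few non-medullary UMIs: over the alternatives tried *Chrna3* ran from 99.3 to 305, *Chrna7* from 73.1 to 195 and *Chrnb4* from 76.4 to 190, the highest of *Chrna3* and *Chrna7* being with doublet calls left out.

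*Adcyap1r1* was 65.7-fold higher in chromaffin-like cells (47.2 to 94.1; 37 non-medullary UMIs). *Ptger3* was 24.8-fold higher (15.6 to 41.4; 21 UMIs), and *Chrnb2* 12.9-fold higher (7.88 to 22.1; 21 UMIs). *Chrna5* fell below 50 UMIs. It had 32 UMIs in chromaffin-like and 0 in non-medullary cells, which is 39.2-fold higher when the 0 is read as 3 counts. That value is not the limit of an exact interval. The median over all 13433 genes in this comparison was -0.14 on the log2 scale. The median ratio of the 6 members that passed was 87.5. They passed through chromaffin-like cells alone, and *Chrna5* and *Adra2a* are not in it, so this median is a description.

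The few non-medullary UMIs were set against the free RNA that droplets can carry. The summed chromaffin markers in endothelial-like cells were 0.255% of their level in chromaffin-like cells, and in cortex-like cells 0.240%. At that share, free RNA would give cortex-like cells 0.208 CPM of *Chrna3*, and 0.332 CPM was seen (7 UMIs). Over all non-medullary cells, where the share was 0.341%, the estimate for *Chrna3* was 0.296 CPM, inside the interval of the level seen (0.217 to 0.698). The part of free RNA in the ratios above was not tested. *Chrna3* had no UMI in 1648 endothelial-like cells (at the upper limit, 0.224% of cells with a UMI). In cortex-like cells *Chrnb4* had 0.190 CPM (4 UMIs) against 0.110 and *Chrna5* had no UMI, while 3 receptors had an interval wholly above the estimate. *Chrnb2* had 0.806 CPM in cortex-like cells (0.469 to 1.29; 17 UMIs) against 0.0204 CPM from the marker share, *Ptger3* had 0.711 CPM (0.398 to 1.17; 15 UMIs) against 0.0392, and *Adcyap1r1* had 0.948 CPM (0.579 to 1.46; 20 UMIs) against 0.183.

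Within the cortex these UMIs were spread unevenly over 3 clusters. *Ptger3* had 8 UMIs (1.65 CPM) in the 755 cells led by *Ecrg4*, *Ly6d* and *Wnt4*, 5 UMIs (0.857 CPM) in the 908 cells of another cluster, led by *Cyp11b1*, the last enzyme of corticosterone synthesis, and 2 UMIs (0.192 CPM) in the 1690 cells led by *Apoc1*. *Adcyap1r1* had 17 UMIs (1.63 CPM) in the last of these, none in the second and 3 in the first. *Chrnb2* was nearly level between the last (10 UMIs, 0.961 CPM) and the second (6 UMIs, 1.03 CPM), with 1 UMI (0.206 CPM) in the first. These are counts of 20 or fewer, so the order within the cortex is a description.

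The cluster led by *Scn7a* and *Col28a1* carried more chromaffin RNA than the non-medullary classes, its summed chromaffin markers reaching 3.84% of the chromaffin-like level. Its 231103 UMIs held 5 UMIs of *Adcyap1r1* (21.6 CPM, 7.02 to 50.5), 2 of *Chrna3* (8.65 CPM, 1.05 to 31.3), 2 of *Chrna7*, 1 of *Chrnb4*, 1 of *Ptger3* and none of *Chrnb2* or *Chrna5*. Chromaffin-like cells were 3.53-fold higher for *Adcyap1r1* (1.5 to 10.9) and 10.0-fold higher for *Chrna3* (2.77 to 83.1). The ratio was 10.6 for *Chrnb4* (1.89 to 420) and 3.57 for *Chrna7* (0.978 to 29.6), whose interval reaches 1. With *Adcyap1r1*, these made 4 of 6 members more than 2-fold higher, against a background of 12.7% of 9910 genes (13.1% were lower), where any count under 3 was set to 3 before the rule was applied. The 6 members reached the minimum of 50 UMIs through chromaffin-like cells alone, with at most 5 UMIs in this cluster, so the count is a description. *Adcyap1r1* at 21.6 CPM lay above the 2.93 CPM that the marker share would give, and *Chrna3* at 8.65 lay above 3.34 with an interval that includes it.

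The 3 genes *Chrna5*, *Chrna3* and *Chrnb4* lie next to each other on chromosome 9. In the GENCODE M21 annotation of GRCm38, *Chrna5* spans 54980880 to 55007779 on the plus strand, *Chrna3* 55010111 to 55026562 on the minus strand and *Chrnb4* 55028154 to 55048779 on the minus strand. The gaps between them are 2331 and 1591 bases, and the 3 genes together cover 67900 bases. The 2 neighbours that share a strand, *Chrna3* and *Chrnb4*, were both abundant, while *Chrna5* on the opposite strand had 32 UMIs in the same cells that held 754 of *Chrna3*.

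The genes on either side, named for their position, mostly differed less. *Psma4*, a proteasome subunit beside *Chrna5*, had 169 CPM in chromaffin-like and 312 CPM in non-medullary cells. *Ireb2*, an iron-regulatory RNA-binding protein, had 50.1 and 41.7 CPM. On the far side of *Chrnb4*, *Ube2q2* had 55.0 and 44.7 CPM, and *Fbxo22* 38.3 and 40.8 CPM. The neighbours at low levels leaned towards chromaffin-like cells, *Hykk* with 7.84 against 2.79 CPM, *Nrg4* with 1.5 against 0.439 CPM, and *Gm47887*, a non-coding gene beyond *Chrnb4*, with 7 UMIs against none. *Gm47877*, annotated antisense within the *Chrnb4* span, had 0 UMIs in both groups. The remaining members lie apart: *Chrna7* on chromosome 7 (63098692 to 63212569), *Chrnb2* on chromosome 3 (89746195 to 89764632), *Ptger3* on chromosome 3 (157566892 to 157645888), *Adcyap1r1* on chromosome 6 (55451978 to 55501451) and *Adra2a* on chromosome 19 (54044151 to 54048982).

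**Figure D2:**
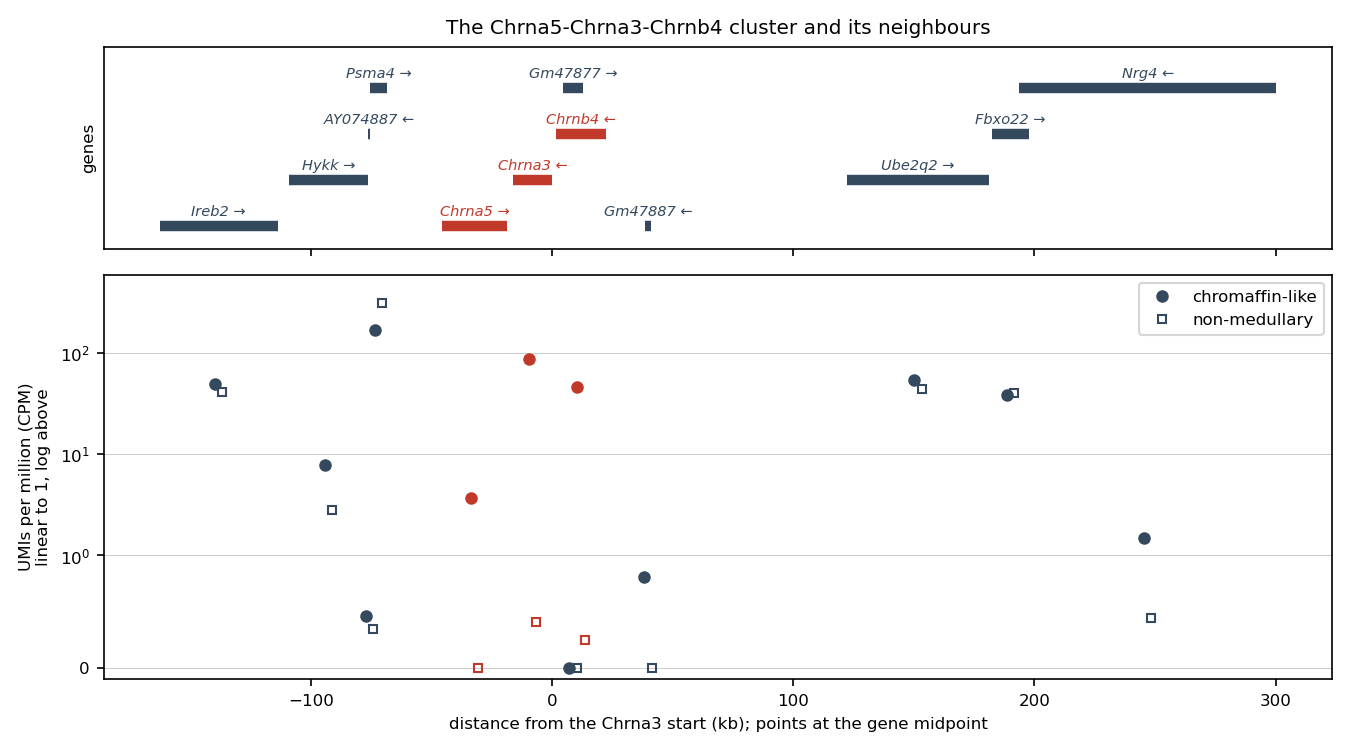
Level in CPM of the genes around *Chrna5*, *Chrna3* and *Chrnb4*, in order along the chromosome, in chromaffin-like and non-medullary cells. The axis is linear at the lowest levels and log above, and no intervals are drawn. *Chrna3* (86.9 against 0.408) and *Chrnb4* (45.9 against 0.251) separate the groups, while *Ireb2* (50.1 against 41.7) and *Ube2q2* (55.0 against 44.7) differ little.

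The second comparison was between noradrenaline and adrenaline chromaffin-like cells. Among the 6 members with at least 50 UMIs, 3 were more than 2-fold higher in noradrenaline chromaffin-like cells (*Ptger3*, *Chrna7* and *Adcyap1r1*), none was more than 2-fold lower, and *Chrna3*, *Chrnb4* and *Chrnb2* lay between. Over all 9714 genes at this depth, 4.49% were higher and 6.69% lower by that rule, and the median over all of them was -0.000977 on the log2 scale. Because cells were grouped from their whole expression profile, these ratios describe the groups. With the 8 members and the 107 other receptor and signalling genes kept out of the genes used to cluster, the ratio of *Ptger3* was 13.7 and that of *Chrna7* 4.24, close to the values below.

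*Ptger3* differed most. It had 102 UMIs in 394 noradrenaline chromaffin-like cells, 76.4 CPM (62.3 to 92.7), and 40 UMIs in 1663 adrenaline chromaffin-like cells, 5.45 CPM (3.89 to 7.42). The ratio was 14.0 (9.63 to 20.7), and 0.329% of the 9714 genes had a larger one. A UMI was found in 20.3% of noradrenaline and 2.29% of adrenaline chromaffin-like cells, although the noradrenaline cells were less deeply sequenced (median 2680 against 3163 UMIs). With every cell thinned to 1000 UMIs the shares were 7.30% and 0.847%, and 0.0726% in endothelial-like cells. Without thinning the endothelial-like share was 0.0607%, at a median of 1724.5 UMIs.

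*Chrna7*, the subunit that can form a channel alone, had 86.8 CPM in noradrenaline (71.8 to 104; 116 UMIs) and 20.7 CPM in adrenaline chromaffin-like cells (17.5 to 24.3; 152 UMIs), a ratio of 4.19 (3.27 to 5.38). A UMI was found in 21.1% and 8.24% of cells, and in 7.03% and 1.94% after thinning. *Adcyap1r1* had 136 CPM (117 to 158; 182 UMIs) and 65.4 CPM (59.7 to 71.5; 480 UMIs), a ratio of 2.08 (1.75 to 2.48). It was the member just past 2-fold, and *Chrna3*, with the same 182 UMIs in noradrenaline cells and 77.9 CPM in adrenaline cells (71.7 to 84.6; 572 UMIs), was just short of it at 1.75 (1.47 to 2.07). *Chrnb4* had 68.1 CPM (54.8 to 83.6) and 41.8 CPM (37.3 to 46.8), a ratio of 1.63 (1.27 to 2.06). For all of these the intervals of the 2 classes did not overlap.

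The accessory subunits showed no such difference at this depth. *Chrnb2* had 7.49 CPM in noradrenaline cells (3.59 to 13.8; 10 UMIs) and 8.72 CPM in adrenaline cells (6.71 to 11.1; 64 UMIs), a ratio of 0.859 whose interval runs from 0.393 to 1.68. *Chrna5* had 7 and 25 UMIs, a ratio of 1.54 with an interval from 0.562 to 3.66. Neither interval excludes a difference of the size seen for *Chrnb4*. When cells were named one by one from their markers rather than by cluster, the ratio was 9.29 for *Ptger3*, 2.88 for *Chrna7* and 1.86, under 2-fold, for *Adcyap1r1*.

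**Figure D3:**
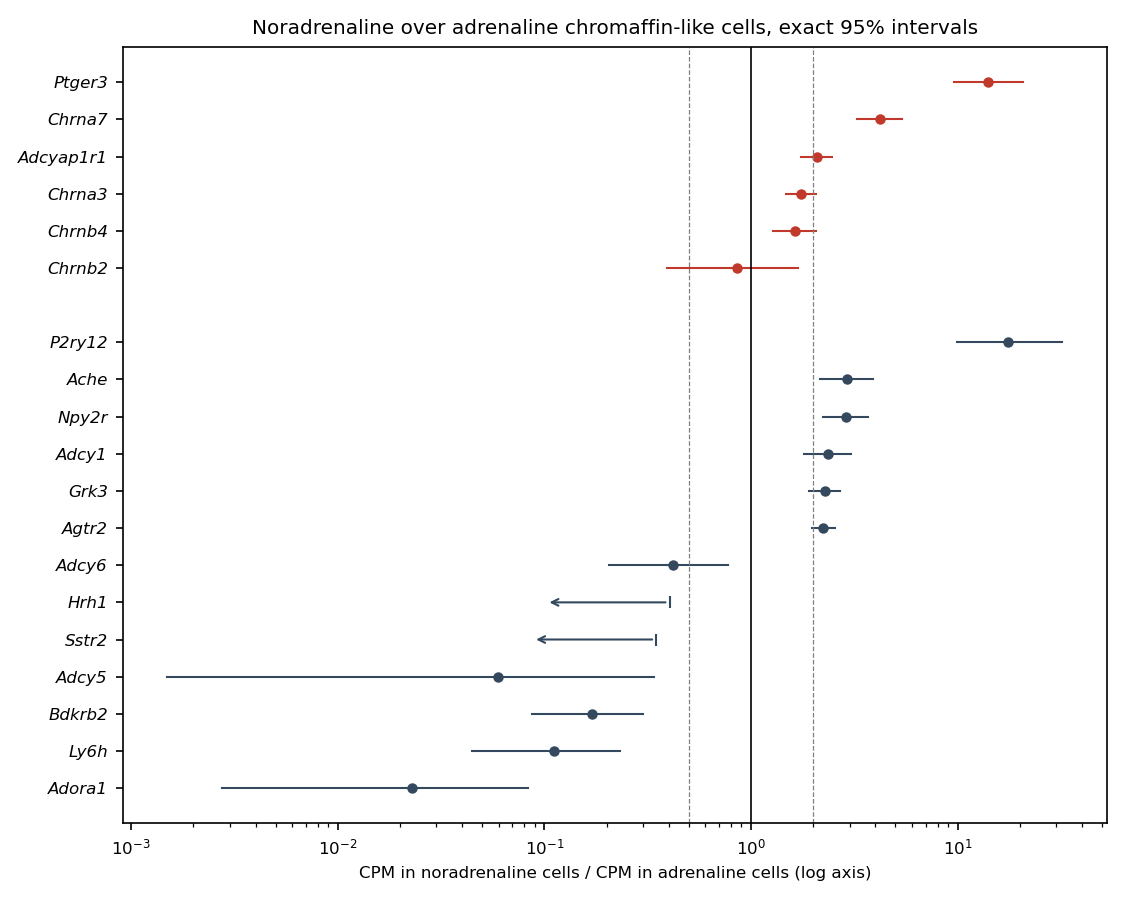
Ratio of the level in noradrenaline to that in adrenaline chromaffin-like cells, on a log axis, with exact 95% intervals of counting error. Shown are the 6 members that passed the minimum of UMIs, and the other receptor and signalling genes past 2-fold. An arrow from the upper limit marks a gene without a UMI in noradrenaline cells. Among the members shown, *Ptger3* (14.0) and *Chrna7* (4.19) lie furthest from 1, *Adcyap1r1* lies at 2.08, and the interval of *Chrnb2* crosses 1.

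*Adra2a* went against its place among receptors of these cells. It had no UMI among the 1663 adrenaline and 394 noradrenaline chromaffin-like cells, and 0 of 2057 cells leaves room for at most 0.146% of cells with a UMI and 0.346 CPM (3 counts of the cells and of 8677942 UMIs), which does not limit the cells that express it below capture. Among all cells kept it had 3 UMIs, 1 in transitioning-like cells, 1 in cycling chromaffin-like cells and 1 in the cells of mixed markers, and none in the 6581 non-medullary cells. At this depth the alpha-2A adrenoceptor was not detectable in chromaffin-like cells. The related *Adra2c*, another inhibitory adrenoceptor, had 18 UMIs in noradrenaline and 29 UMIs in adrenaline chromaffin-like cells (13.5 and 3.95 CPM) and 1 in non-medullary cells, and fell below 50 UMIs.

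The adrenaline class was made of 3 clusters, and the members differed among them unevenly. The first, of 829 cells, was shallow (median 2310 UMIs) and led by *Pnmt*, *Cfap61* and *C1qtnf4*, the second, of 706 cells, was deep (5754.5) and led by *Olfm3*, *Sema5a* and *Pcdh10*, and the third, of 128 cells (2701), was led by *Atf3*, *Egr3* and *Dnajb1*, genes of the stress and immediate-early response. *Chrna3* was level across them, at 78.7, 78.5 and 67.4 CPM. *Chrnb4* was not, at 24.8 CPM (18.4 to 32.6), 47.1 CPM (41.2 to 53.6) and 60.9 CPM (40.5 to 88.0), with ratios to the first cluster of 1.90 (1.40 to 2.64) and 2.46 (1.49 to 3.98).

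*Adcyap1r1* followed the same order, at 48.5, 71.1 and 78.3 CPM, 1.47-fold (1.17 to 1.85) and 1.61-fold (1.07 to 2.39) above the first cluster. *Chrna7* had 18.8, 22.6 and 8.70 CPM, and *Ptger3* 3.96, 5.55 and 10.9 CPM. Set against each cluster in turn, noradrenaline cells were 19.3-, 13.8- and 7.02-fold higher for *Ptger3* and 4.61-, 3.84- and 9.98-fold higher for *Chrna7*. The stress-gene cluster, the last of these, is the smallest, so its *Chrna7* and *Ptger3* levels rest on few UMIs and the ratios to it are imprecise. For *Chrnb4* the ratios were 2.75 (1.93 to 3.97), 1.45 (1.12 to 1.85) and 1.12 (0.725 to 1.78), so its difference between the classes depended on which adrenaline cells were used. The 3 clusters also differed in depth, and the part of depth in these values was not tested.

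Taken as 1 class, transitioning-like cells had a level between those of noradrenaline and adrenaline cells for *Chrna3*, *Chrna7*, *Chrnb4*, *Adcyap1r1* and *Ptger3*. These levels pool cells with low and with higher *Pnmt*, which are split below, so they need not be the level of either group. *Ptger3* reached 46.3 CPM (38.3 to 55.5; 117 UMIs), 8.49-fold above adrenaline cells (5.89 to 12.5) and 0.606 of the noradrenaline level (0.461 to 0.798). *Chrna7* reached 44.7 CPM (36.8 to 53.7), 2.16-fold above adrenaline cells and 0.515 of the noradrenaline level (0.394 to 0.673). *Chrna3* at 117 CPM (104 to 132) and *Adcyap1r1* at 114 CPM (102 to 128) did not differ from the noradrenaline level beyond counting error. *Chrnb4* at 45.1 CPM (37.2 to 54.2) overlapped the adrenaline level, and *Chrnb2* was highest in this class, at 13.4 CPM (9.31 to 18.8), with an interval that overlaps the adrenaline class.

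The transitioning-like cells were then split by *Pnmt*, a split chosen after the values had been seen. A total of 275 cells had under 1000 CPM of *Pnmt*, of which 224 had no *Pnmt* UMI, and 137 cells had more. Only 22 cells lay between 500 and 2000 CPM. *Ptger3* had 65.1 CPM (53.3 to 78.7) in the low-*Pnmt* cells and 12.2 CPM (6.10 to 21.9) in the others, a ratio of 5.32 (2.86 to 11). *Chrna7* had 55.9 and 24.5 CPM, a ratio of 2.29 (1.42 to 3.82), *Adcyap1r1* a ratio of 1.83 (1.39 to 2.44) and *Chrna3* a ratio of 1.70 (1.30 to 2.24). *Chrnb4* was 46.1 and 43.3 CPM, with a ratio of 1.06 (0.712 to 1.61). *Chrnb2* had 16.0 and 8.89 CPM, a ratio of 1.80 whose interval reaches 1 (0.789 to 4.59), and *Chrna5* ran the other way with 2 UMIs in the low-*Pnmt* cells and 7 in the others, a ratio of 0.158 (0.016 to 0.829). *Ptger3* and *Chrna7* thus had the largest ratios here as they did between noradrenaline and adrenaline cells, and *Chrna5* and *Chrnb2*, the rarest detected members, lay on the other side of 1 from there.

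Cycling chromaffin-like cells lay near the adrenaline level for *Chrna3* (93.0 CPM, 1.19-fold), *Chrnb4* (41.8 CPM), *Chrna7* (20.9 CPM) and *Adcyap1r1* (74.2 CPM). *Ptger3* was the exception at 18.8 CPM (11.1 to 29.7), 3.45-fold above adrenaline cells (1.86 to 6.16) and 0.246 of the noradrenaline level. Across classes, the order for *Ptger3* was noradrenaline, transitioning-like, cycling and adrenaline, and no neighbours among these overlapped in their intervals. For *Chrna3* the order was the same, but each neighbouring pair overlapped. For *Chrna7* the first 3 classes were separate and the cycling and adrenaline classes overlapped. For *Chrnb4* the noradrenaline class (54.8 to 83.6) stood narrowly apart from the next, the transitioning-like class (37.2 to 54.2), but overlapped the cycling class (29.9 to 56.9). The other 3 classes overlapped. For *Adcyap1r1* the noradrenaline and transitioning-like classes overlapped and stood apart from the cycling and adrenaline classes, which overlapped each other, and for *Chrnb2* and *Chrna5* all neighbours among the 4 classes overlapped.

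**Figure D4:**
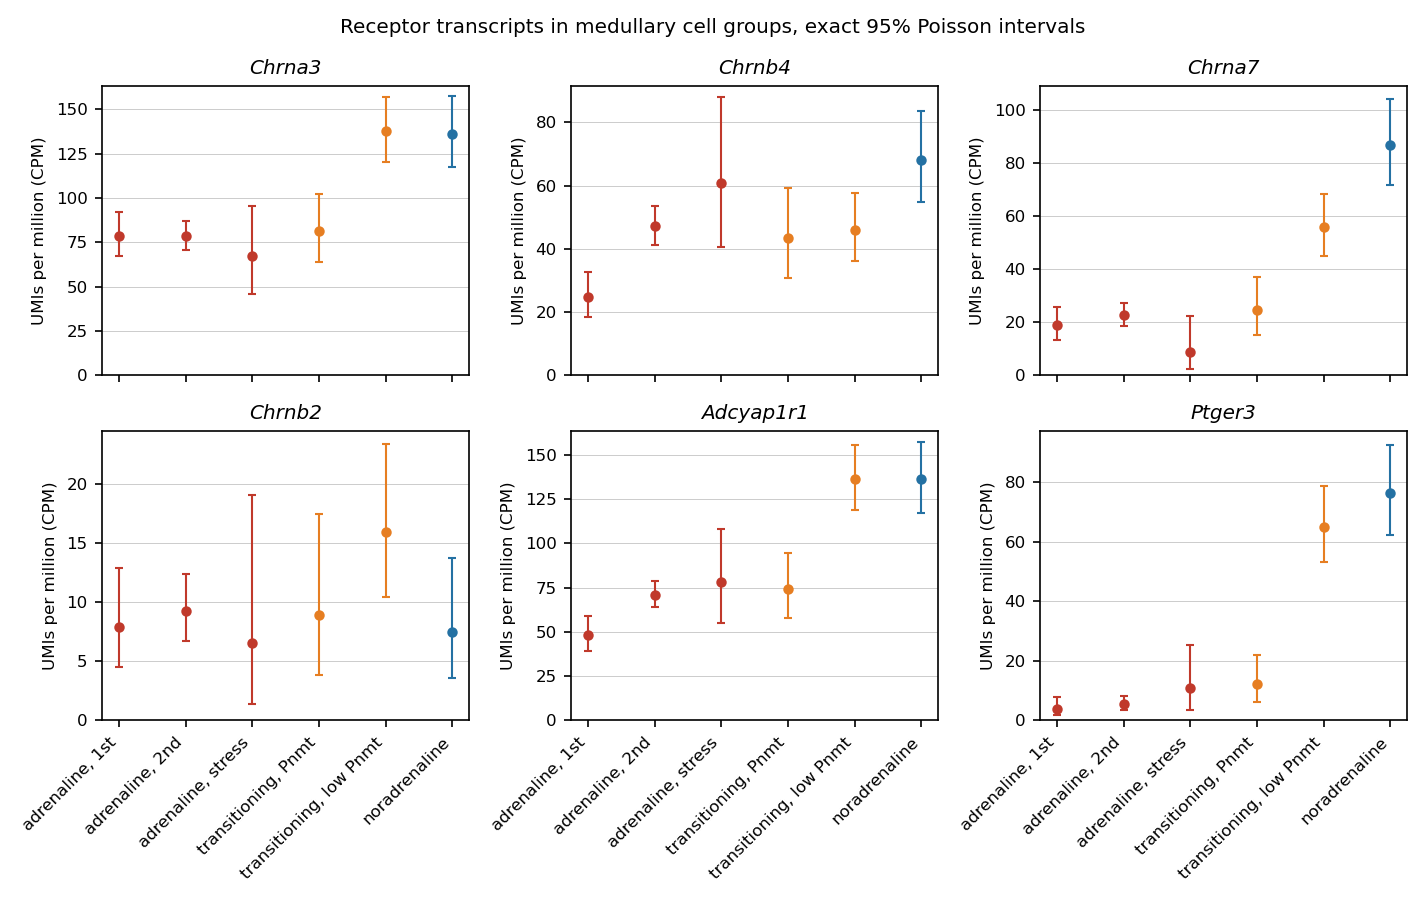
Level in CPM, with exact 95% Poisson intervals, of *Chrna3*, *Chrnb4*, *Chrna7*, *Chrnb2*, *Adcyap1r1* and *Ptger3*. The groups are the noradrenaline class, the 3 adrenaline clusters, and the transitioning-like cells with low and high *Pnmt*. *Ptger3* is at 76.4 in noradrenaline and 65.1 in low-*Pnmt* transitioning-like cells and at 12.2 or less in the other groups shown, while *Chrnb4* is lowest in the first adrenaline cluster at 24.8.

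Single cells carried few UMIs of any receptor, the most in 1 cell of the 11 classes being 10 of *Adcyap1r1*, 6 of *Chrna3* and *Chrna7*, 4 of *Chrnb4* and *Ptger3*, 2 of *Chrnb2* and 1 of *Chrna5*. *Chrna3* was found in 25.7% of adrenaline, 32.5% of noradrenaline and 45.1% of transitioning-like cells. After thinning the shares were 8.05%, 14.1% (10.7 to 18.0) and 11.7% (8.74 to 15.2). The share of transitioning-like cells was thus no longer above that of noradrenaline cells at equal depth, and these 2 intervals overlapped. At least 1 of the 5 nicotinic members was found in 41.6% of adrenaline, 52.5% of noradrenaline and 63.1% of transitioning-like cells. No member at all was found in 48.8%, 34.5% and 23.5% of these classes. After thinning, a nicotinic member was found in 14.5%, 25.1% (20.8 to 29.9) and 20.2% (16.4 to 24.4). No member was then found in 81.0%, 62.7% and 68.4%. At equal depth transitioning-like cells were thus not above noradrenaline cells in either measure. Before thinning, only 3 cells held 6 members, 1 noradrenaline and 2 transitioning-like.

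*Chrna3* and *Chrnb4*, which encode the partners of 1 receptor, were found together in 121 of 2057 chromaffin-like cells, 5.88% (4.90 to 6.99), against 4.14% from the product of their shares. Deep cells show more of every gene, and after thinning to 1000 UMIs both were found in 6 of 2022 cells, 0.297% against a product of 0.318%. That share has an interval of 0.109% to 0.645%, so 6 cells are too few to tell whether the excess remains at equal depth. *Chrna7* and *Ptger3*, which share the noradrenaline cells, were found together in 34 chromaffin-like cells against 12.6 from the product, and within the 394 noradrenaline cells in 27 cells (6.85%) against 16.9. *Chrna3* with *Adcyap1r1* gave 187 cells against 129, and after thinning 9 cells against 11.6. *Chrna3* with *Chrna7* gave 88 cells against 59.5, and after thinning 13 cells, 0.643% (0.343 to 1.10), against 0.264%. A separate thinning by class gave 2 of 1652 adrenaline cells against 2.58, and 4 of 370 noradrenaline cells against 3.65. The pooled and class draws thinned the same cells separately, so their counts also differ from draw to draw. Whether this pair exceeds the product at equal depth cannot be told from them. At 1000 UMIs *Chrna7* and *Ptger3* were found together in 2 of 2022 chromaffin-like cells and in 0 of 370 noradrenaline cells, too few to compare with the product.

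For each member with at least 100 UMIs, the genes whose level over the 11 cell classes was most like it were found by the Pearson correlation of log2(CPM + 10) among 12667 genes. These coefficients describe 11 classes of 1 library that share their depth, and most are set by the contrast of medullary with other classes. *Chrna3* was most like *Synpr* (0.9972), *Gdap1l1* and *Nsg2*, of which *Synpr* encodes a synaptic vesicle protein. *Chrnb4* was most like *Ckmt1* (0.9978), *Lhfpl5* and *Ap3b2*, and *Chrnb2* like *Elavl2* (0.9979), *Slc6a17* and *A230051N06Rik*. *Adcyap1r1* was most like *Ddc* (0.9969), the enzyme that makes dopamine from L-DOPA, with *Zcchc18* and *Ppp2r2c*.

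The 2 members that differed most between the chromaffin classes had other neighbours. *Chrna7* was most like *Ptgds* (0.9929), *Vstm2l* and *Garnl3*, and *Ptger3* like *Myl1* (0.9964), *Nefl* and *Grm7*. *Myl1*, a myosin light chain, was itself a leading gene of the noradrenaline cluster with *Cox8b* and *Penk*, at 227 CPM there and 5.45 CPM in adrenaline cells. Between members the coefficient was 0.9916 for *Chrna3* and *Chrnb4*, 0.9865 for *Chrna3* and *Adcyap1r1*, 0.9611 for *Chrna7* and *Ptger3* and 0.8057 for *Chrnb2* and *Ptger3*.

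The other genes of cholinergic, PACAP, prostanoid and adrenergic signalling were 107 genes in 9 lists. Of these, 34 had at least 50 UMIs over noradrenaline and adrenaline chromaffin-like cells, of which 6 were more than 2-fold higher in noradrenaline cells, 7 were lower and 21 lay between, with a median ratio of 1.02. Over chromaffin-like and non-medullary cells 51 passed, of which 19 were higher in chromaffin-like cells, 17 lower and 15 between.

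None of the 11 other nicotinic subunits had 50 UMIs over the chromaffin classes, and 5 of them had any UMI there. The 1 that passed against non-medullary cells, *Chrna4*, was lower in chromaffin-like cells, with 131 non-medullary UMIs of which 107 were in cortex-like cells. Of the 5 muscarinic receptors none passed between the chromaffin classes. *Chrm1* had 37 UMIs in noradrenaline and 6 in adrenaline cells (27.7 and 0.817 CPM), just under the count needed, and *Chrm3* was highest in endothelial-like cells at 39.0 CPM and lower in chromaffin-like cells.

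Among 11 chaperones and accessory proteins of nicotinic receptors, 5 passed between the chromaffin classes. *Ly6h*, a membrane protein that can hold nicotinic receptors back, was lower in noradrenaline cells (5.24 against 46.9 CPM, 8.94-fold, 4.29 to 22.4) and higher in chromaffin-like than non-medullary cells (15.9-fold). *Ric3*, a chaperone of alpha-7, had 42.7 and 39.9 CPM, so the 4.19-fold difference of *Chrna7* stood beside a chaperone that differed by less than 2-fold. *Ywhah*, a 14-3-3 protein, had 278 and 200 CPM, and *Jak2*, a kinase, 8.98 and 11.7 CPM. Against non-medullary cells *Rapsn*, which anchors muscle nicotinic receptors, was 2.71-fold higher, and *Tmem35a*, which encodes the alpha-7 chaperone NACHO, was lower in chromaffin-like cells (0.922 against 111 CPM) and highest in cortex-like cells at 157 CPM. *Lynx1*, *Ly6e* and *Lypd6* were lower too.

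For acetylcholine handling, *Ache*, which breaks acetylcholine down, was the 1 gene of 5 to pass between the chromaffin classes. It had 55.4 CPM in noradrenaline and 19.1 CPM in adrenaline cells, a ratio of 2.91 (2.16 to 3.88), and was 52.4-fold higher in chromaffin-like than in non-medullary cells. *Bche*, the related butyrylcholinesterase, was lower in chromaffin-like cells and highest in the cluster led by *Scn7a* and *Col28a1*, at 77.9 CPM. *Chat*, which makes acetylcholine, had no UMI in chromaffin-like cells, and *Slc18a3*, its vesicular transporter, had 4 UMIs in noradrenaline cells. None of the 4 PACAP and VIP ligands and other receptors passed in either comparison, and *Adcyap1*, which encodes PACAP itself, had no UMI in chromaffin-like cells.

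Of the 12 prostanoid receptors and synthesis genes, 2 passed between the chromaffin classes and neither was past 2-fold, *Ptges2* at 15.7 CPM in noradrenaline and 16.8 CPM in adrenaline cells and *Ptges3* at 229 and 247 CPM. Both belong to the enzymes that make prostaglandin E2, as does *Ptges*, which was highest in fibroblast-like cells at 33.5 CPM. No other prostaglandin E2 receptor had 50 UMIs over the chromaffin classes. *Ptger4* had 21 UMIs in immune-like cells and none in chromaffin-like cells, and *Ptger2* had 16 UMIs in immune-like cells. *Ptgs1*, the cyclooxygenase that starts prostaglandin synthesis, was lower in chromaffin-like cells and highest in immune-like cells at 92.5 CPM, and *Tbxa2r*, the thromboxane receptor, was highest in endothelial-like cells at 157 CPM.

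Among 13 adrenoceptors and desensitisation genes 3 passed between the chromaffin classes, and *Grk3*, a kinase that desensitises receptors of this type, was higher in noradrenaline cells (137 against 60.3 CPM, 2.27-fold, 1.90 to 2.70) and 46.0-fold higher in chromaffin-like than non-medullary cells. *Adrb1*, a beta adrenoceptor, was lower in chromaffin-like cells and highest in immune-like cells, at 59.6 CPM, and *Grk5* and *Arrb1* were lower too. *Grk2*, a kinase of the same kind as *Grk3*, fell just short of 2-fold at 48.7 against 24.5 CPM (ratio 1.98), and *Arrb2*, an arrestin, had 11.2 and 10.9 CPM.

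Of 15 G proteins and adenylyl cyclases, 12 passed between the chromaffin classes. *Gnas*, which encodes the Gs protein of the PACAP receptor, had 6188 CPM in noradrenaline and 4250 CPM in adrenaline cells and was 4.48-fold higher in chromaffin-like than in non-medullary cells. *Gnao1*, which encodes Go, had 115 CPM in both classes and was 79.8-fold higher than in non-medullary cells, and *Gnaz*, a further inhibitory G protein, was 24.4-fold higher. The other G proteins, *Gnai2* (312 and 252 CPM in noradrenaline and adrenaline cells), *Gnai3* (89.1 and 72.7), *Gnaq* (121 and 100.1) and *Gna11* (74.1 and 88.5), lay within 2-fold in both comparisons. Of the 5 cyclases that passed, 1 was higher, 2 were lower and 2 lay within 2-fold (*Adcy3* with 15.0 against 16.1 CPM and *Adcy9* with 5.99 against 7.63 CPM). *Adcy1*, which calcium activates, was higher in noradrenaline cells (63.6 against 27.1 CPM, 2.35-fold, 1.80 to 3.04). *Adcy5* and *Adcy6*, which calcium inhibits, were lower there, *Adcy5* with 1 UMI against 92 (16.7-fold, 2.93 to 668) and *Adcy6* with 8.23 against 19.6 CPM (2.38-fold, 1.29 to 4.88). All 3 were higher in chromaffin-like than in non-medullary cells, at 130-, 85.4- and 6.47-fold, as was *Adcy3* at 2.95-fold, while *Gnai1* and *Adcy9* were lower.

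In the list of 31 other transmitter receptors, 11 passed between the chromaffin classes, with 3 higher and 4 lower in noradrenaline cells. *P2ry12*, an inhibitory ADP receptor, had 40.4 against 2.32 CPM (17.5-fold, 9.97 to 32.1), a ratio above that of *Ptger3*. *Npy2r*, an inhibitory receptor for neuropeptide Y, had 75.6 against 26.3 CPM (2.88-fold, 2.24 to 3.68), and *Agtr2*, a receptor for angiotensin II, 249 against 111 CPM (2.24-fold, 1.97 to 2.55). *Adora1*, the inhibitory adenosine receptor, went the other way with 2 UMIs in noradrenaline and 480 UMIs in adrenaline cells (1.5 against 65.4 CPM, 43.7-fold lower, 12 to 362).

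*Bdkrb2*, the bradykinin receptor, had 8.98 against 52.8 CPM (5.88-fold lower, 3.33 to 11.5). *Hrh1*, a histamine receptor, and *Sstr2*, a somatostatin receptor, had no UMI in noradrenaline cells and 52 and 60 UMIs in adrenaline cells, at least 3.15-fold and 3.64-fold lower at 3 counts. Against non-medullary cells, *Gria2*, a glutamate receptor subunit, was 181-fold higher, *Bdkrb2* 184-fold, *Agtr2* 76.7-fold, *Sstr2* 73.4-fold, *Npy2r* 56.8-fold, *Hrh1* 31.8-fold and *P2ry12* 9.66-fold, and *Adora2a* and *Calcrl* (295 CPM in endothelial-like cells) were lower. *Agtr1a*, another angiotensin receptor, had 24.0 and 23.6 CPM in noradrenaline and adrenaline cells, and *P2rx4*, an ATP-gated channel, 7.49 and 10.4 CPM.

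Set against the cluster led by *Scn7a* and *Col28a1*, 34 of the 107 genes passed, of which 11 were higher in chromaffin-like cells (among them *Ric3*, *Ly6h*, *Gnas*, *Gnao1*, *Gna11*, *Npy2r*, *Agtr2*, *Bdkrb2*, *Adora1* and *Gria2*), 2 lower (*Jak2* and *P2ry12*) and 21 between. The last 2 rest on 6 and 4 UMIs in that cluster, and the interval of each ratio reaches 1.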

How the data were processed

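Cells of 1 pooled adrenal medulla library (10x Genomics 3′ chemistry, v3.1) were analysed. The authors aligned and counted reads with Cell Ranger 4.0.0 on build mm10 and deposited raw UMI counts per gene and barcode, which held 11214 barcodes of 500 to 33809 UMIs. The deposited matrix is not normalised, and the annotation version they used is not given in the sources used here.

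From these counts, following the limits of the study, cells with 500 to 5000 genes and at most 20% mitochondrial UMIs were kept (90.4% of barcodes). They were clustered with Seurat 5.3.0 in R 4.3.3 (2000 variable features, 10 principal components, Louvain resolution 0.4), and medullary clusters were clustered again. A cluster was named when at least 3 markers of a class each had a UMI in 50% of its cells (25% for sustentacular and cycling markers). The cluster led by *Scn7a* and *Col28a1* met this rule for sustentacular markers and is called by its leading genes because of its low depth. Scrublet in scanpy 1.11.5 (expected rate 8%) called 669 doublets (6.60%), which were kept. No barcode was listed more than once.

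UMIs were summed per class and divided by the class total (CPM). With 1 library there is no replicate, so no test was made and no p-value is given. Intervals are exact Poisson for levels, exact Clopper-Pearson for shares and exact conditional for ratios, at 95%. In a ratio given for a count of 0, the 0 is read as 3 counts. Genes with at least 50 UMIs over both groups were called at 2-fold, with counts under 3 set to 3. Shares were also taken after thinning each cell to 1000 UMIs, which kept 1652 adrenaline, 370 noradrenaline, 411 transitioning-like and 138 cycling cells. The scripts (Python 3.11.15, numpy 2.4.6, scipy 1.17.1, pandas 2.3.3) were tested on simulated data.

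The genes named were the members, the genes of 9 lists of other receptor and signalling genes with at least 25 CPM in any class or past 2-fold, the 3 genes most like each member of at least 100 UMIs, and the 3 leading genes of each medullary cluster. The genes flanking the chromosome 9 locus, *Adra2c*, *Chrm1*, *Chat*, *Slc18a3*, *Adcyap1*, *Ptger2* and *Ptger4* were named outside this rule, after their values were seen. Members and lists were chosen with earlier results of these data known. Sequences are from RefSeq. The results of some genes are not reported here. Alternatives in resolution, components, cell limits, doublets, features, naming and averaging were tried.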

Additional observations from a re-analysis of the deposited data

How the results depend on the processing

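No paired analysis was possible because there is 1 library, and leaving out a replicate was not possible for the same reason. Of 63 recomputed ratios of noradrenaline to adrenaline chromaffin-like cells, 61 stayed within the counting interval and 2 moved, both when cells were named one by one from their markers: *Chrna7* to 1.53 and *Ptger3* to 3.22 on the log2 scale. Of 54 ratios to non-medullary cells 49 stayed and 5 moved. With cells limited to 1000 or more genes and 10% mitochondrial UMIs or less, *Chrna3* fell to 6.63 and *Chrnb4* to 6.41 (log2), and with naming cell by cell *Chrna3* was 6.71, *Chrnb4* 6.26 and *Adcyap1r1* 5.39. All 36 ratios to the cluster led by *Scn7a* and *Col28a1* stayed, and the stricter limits left that cluster no cells and so no value. No ratio past 2-fold changed direction. *Adcyap1r1* between the chromaffin classes ran from 1.86 to 2.16, and *Chrnb2* (0.731 to 1.43) and *Chrna5* (0.926 to 1.58), which were not past 2-fold, crossed 1. Leaving out the adrenaline cluster led by stress genes, an alternative chosen after seeing the data, gave 15.0 for *Ptger3* and 4.04 for *Chrna7*. *Chrna3* and *Chrnb4* together were found in 0.297% of thinned cells. Genes more than 2-fold higher in noradrenaline cells numbered 436, 700 at a minimum of 20 UMIs and 169 at 200, and in chromaffin-like against non-medullary cells 2532, and 1594 at 200. The cause of these shifts was not tested beyond the number of genes measured. Depth limits *Chrna5*, *Chrnb2* and *Adra2a* most.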

Other observations

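The cells left out of all classes also held receptor UMIs. The 727 cells with markers of more than 1 class, of which 68.1% were called as doublets, had 161 UMIs of *Chrna3* (37.1 CPM), 136 of *Adcyap1r1* (31.3 CPM), 67 of *Chrnb4* (15.4 CPM), 47 of *Chrna7* (10.8 CPM), 27 of *Ptger3* (6.22 CPM), 10 of *Chrnb2*, 5 of *Chrna5* and 1 of *Adra2a*. The 43 unnamed cells had no UMI of any of the 8 receptors.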
